A study of Homo sapiens with 3 samples.

Results

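The TGF-beta pathway core examined here consisted of 9 genes, namely the ligands TGFB1, TGFB2 and TGFB3, the receptors TGFBR1 and TGFBR2, and the intracellular transducers SMAD2, SMAD3, SMAD4 and SMAD7. They were found by symbol among the probe sets that the platform annotation assigns to a single gene, and all 9 were measured, among 18417 genes in all. C33A, a line derived from a human carcinoma of the cervix, was grown as 3 separate cultures, and the RNA of each was read on its own Affymetrix Human Gene ST array. All cultures were untreated and growing exponentially in medium with fetal bovine serum, so that the arrays hold 1 condition and no control group. A single line was used, and nothing in the data separates features of C33A from those of cervical carcinoma in general. The levels are log2 intensities after Robust Multichip Average (RMA) normalisation, a scale on which 1 unit is a doubling of signal.

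TGF-beta ligands are secreted in a latent form and, once released, bind the type II receptor TGFBR2, which recruits and phosphorylates the type I receptor TGFBR1. TGFBR1 phosphorylates SMAD2 and SMAD3, which join SMAD4 and enter the nucleus to change transcription. SMAD7 is usually induced by the pathway and blocks the receptors, which makes it a feedback inhibitor. In normal epithelium the pathway restrains proliferation, and its receptors or SMAD4 are lost in some carcinomas. Serum itself carries TGF-beta protein, which an RNA measurement does not show.

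The receptors and the shared transducer SMAD4 had high transcript levels in C33A cells. The ligands TGFB2 and TGFB3 and the inhibitor SMAD7 lay under a bound set by genes that are silent in most tissues. These were 455 genes for beta-defensins, keratin-associated proteins and the receptors of smell and taste, with a median of 4.05 log2. Their highest gene was at 8.84, above TGFB1 and SMAD3, and the bound was their 95th percentile, 6.43. Of the 9 genes, 6 exceeded this bound on every array and 3 were below it on every array, while 56.3% of all genes exceeded it on the mean of the arrays. The count was 7 with the 90th percentile of the silent families as bound (5.87, exceeded by 64.8% of all genes), where TGFB3 passed as well. It was 4 with the 99th (7.88, exceeded by 37.2% of all genes), where TGFB1 and SMAD3 did not pass. In the upper tertile of all genes, above 8.14, were 4 of the 9 (33.3% of all genes by construction), and 2 were in the lowest tertile. In an array of whole cultures, fewer expressing cells and less RNA per cell cannot be told apart. Since the arrays give no call of presence, a level below the bound is a weak signal and does not show that the transcript is missing.

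**Figure D1:**
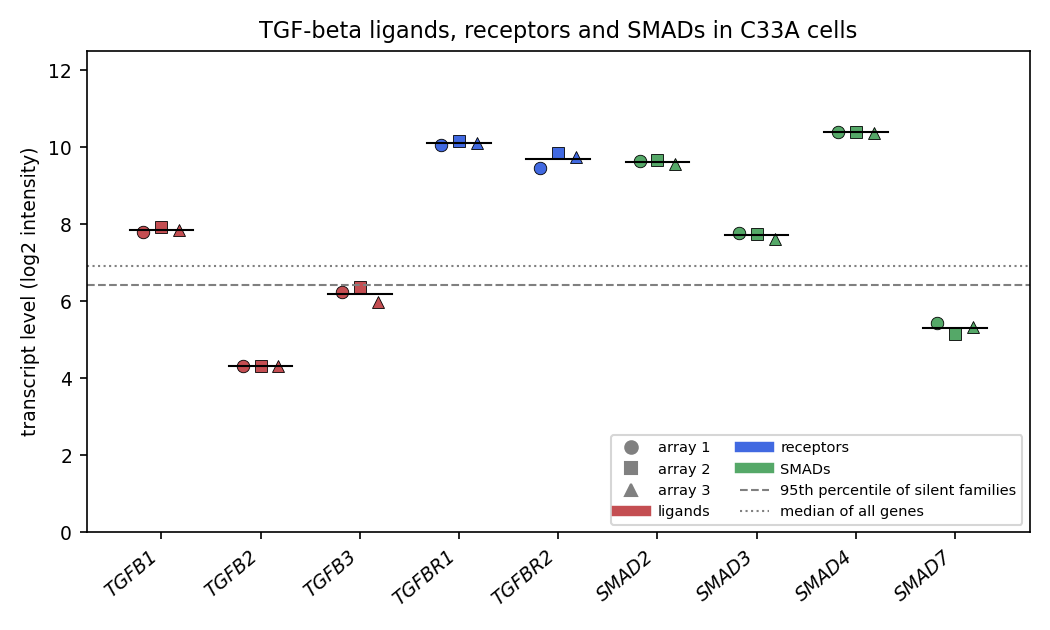
Transcript level (y axis, log2 intensity) of the 3 ligands, 2 receptors and 4 SMADs in C33A cells, 1 symbol per array and a line at the mean of 3 arrays. The dashed line is the 95th percentile of the silent gene families (6.43) and the dotted line the median of all genes (6.91). TGFB2, TGFB3 and SMAD7 lie below the dashed line on all arrays and the other 6 genes above both lines.

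The promoters of 3 genes are shown because they mark the range seen among the members. TGFB1 and TGFB2 are the ligands of highest and lowest signal, and SMAD4 is the member of highest level. Each sequence runs from 250 bases before to 50 bases after the first transcription start that RefSeq lists for the gene (GRCh38.p14), and capitals mark the GC box (GGGCGG or CCGCCC) and the TATA box (TATAAA or TTTATA). The windows are chr19:41353873-41354172 on the minus strand for TGFB1, chr1:218345086-218345385 on the plus strand for TGFB2 and chr18:51029963-51030262 on the plus strand for SMAD4.
TGFB1: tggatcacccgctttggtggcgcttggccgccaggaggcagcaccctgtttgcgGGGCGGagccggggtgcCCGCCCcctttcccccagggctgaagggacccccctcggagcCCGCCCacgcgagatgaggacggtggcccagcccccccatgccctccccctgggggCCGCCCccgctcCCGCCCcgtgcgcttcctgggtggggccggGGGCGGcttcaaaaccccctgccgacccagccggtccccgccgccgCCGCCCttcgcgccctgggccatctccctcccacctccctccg
TGFB2: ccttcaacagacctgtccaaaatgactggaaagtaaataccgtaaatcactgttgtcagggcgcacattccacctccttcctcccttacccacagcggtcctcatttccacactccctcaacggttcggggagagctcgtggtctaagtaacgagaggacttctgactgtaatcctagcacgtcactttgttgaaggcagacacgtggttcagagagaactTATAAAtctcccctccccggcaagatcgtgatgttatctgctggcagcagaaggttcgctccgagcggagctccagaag
SMAD4: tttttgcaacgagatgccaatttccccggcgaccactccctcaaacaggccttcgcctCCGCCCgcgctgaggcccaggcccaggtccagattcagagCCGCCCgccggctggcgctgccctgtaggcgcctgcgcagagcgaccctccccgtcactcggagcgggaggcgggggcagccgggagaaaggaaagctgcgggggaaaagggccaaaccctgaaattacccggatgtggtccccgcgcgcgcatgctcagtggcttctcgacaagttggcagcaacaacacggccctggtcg
The TGFB1 window held 7 GC boxes, the SMAD4 window 2 and the TGFB2 window none. TGFB2 alone of the 9 genes had a TATA box in its window, beginning at position -29, with the start base counted as 0. Of the 27305 first windows in the table, 44.6% held a GC box and 12.0% a TATA box, against 4 and 1 of the 9 members. These motifs were chosen after the levels were known, and a match in letters is not a binding site. Neither motif overlapped the other in the windows shown.

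Of the ligands, TGFB1 exceeded the bound of the silent families and its paralogues did not. TGFB1 (probe set 8037005), the most widely expressed of the ligands in adult tissues, had log2 levels of 7.79, 7.92 and 7.85 on arrays 1, 2 and 3, a mean of 7.85 ± 0.06 (SD, n = 3 arrays), above 62.4% of all genes. TGFB3 (probe set 7980316) was at 6.24, 6.36 and 5.98, with a mean of 6.19 ± 0.20 (SD, n = 3), close under the bound of the silent families. TGFB2 (probe set 7909789) gave 4.32, 4.33 and 4.31 (4.32 ± 0.01, SD, n = 3), near the median of those families. It gave the lowest signal of the 9 genes on each array. Since TGFB3 and TGFB2 may be background signal, no size is given for their difference from TGFB1. Signals of different probe sets also depend on their probe sequences, so that differences and orders between genes are approximate throughout. The GC content of the promoter windows was 77.3% for TGFB1, 51.7% for TGFB2 and 56.0% for TGFB3, beside a median of 58.3% over all windows.

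Both signalling receptors had high levels. TGFBR1 (probe set 8156826), the type I kinase, was at 10.05, 10.16 and 10.09 log2, with a mean of 10.10 ± 0.06 (SD, n = 3), above 92.4% of all genes. TGFBR2 (probe set 8078350), the ligand-binding type II kinase, was at 9.46, 9.84 and 9.75 and averaged 9.68 ± 0.20 (SD, n = 3), above 88.6% of genes. TGFBR1 was thus the higher on every array, by 0.59, 0.33 and 0.34 log2. TGFBR2 was lowest on array 1, and its SD was larger than that of 99.2% of the genes in the same decile of signal, whose median SD was 0.05. With 3 cultures of 1 condition this spread has no labelled cause, and its source was not tested. The first promoter windows of the receptors differed, with 78.7% GC and 40 CpG dinucleotides for TGFBR1 and 42.3% GC and 8 CpG dinucleotides for TGFBR2. RefSeq lists 8 windows for TGFBR1 and 2 for TGFBR2, and the arrays do not show which start is used.

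Among the SMADs, SMAD2, SMAD3 and SMAD4 exceeded the bound of the silent families on every array and SMAD7 did not. SMAD4 (probe set 8021228), the partner shared with the BMP branch, was the highest of the 9 genes, at 10.39, 10.38 and 10.37 log2 (10.38 ± 0.01, SD, n = 3), above 94.4% of all genes. It was also among the steadiest, since only 4.02% of genes in its decile had a smaller SD. SMAD3 (probe set 7984364), a receptor-activated SMAD that binds DNA directly, was at 7.78, 7.75 and 7.61 (7.71 ± 0.09, SD, n = 3), above 60.4% of genes. SMAD7 (probe set 8023220) was at 5.44, 5.15 and 5.33 (5.31 ± 0.15, SD, n = 3), above 26.9% of genes, with a difference to the bound of the silent families of -1.12 log2. SMAD4 exceeded SMAD3 by 2.67 ± 0.08 log2 within the arrays (SD, n = 3). In the promoter table SMAD2, SMAD4 and SMAD7 all lie on chromosome 18.

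SMAD2, the other receptor-activated SMAD of this branch, was the only member with more than 1 probe set. The average of its 2 probe sets was 9.63, 9.66 and 9.57 log2 (9.62 ± 0.05, SD, n = 3), above 87.9% of genes. Probe set 8023195 gave 10.62, 10.55 and 10.51, and probe set 8023191 gave 8.65, 8.77 and 8.62. The higher exceeded the lower by 1.88 ± 0.10 log2 (SD, n = 3 arrays), a larger gap than in 78.6% of the 598 genes with 2 probe sets, for which the median gap was 0.59. On the higher probe set alone SMAD2 averaged 10.56 and came before SMAD4, while on the lower, at 8.68 ± 0.08 (SD, n = 3), it came after TGFBR2. On either probe set and on every array SMAD2 was above SMAD3. With the average it exceeded SMAD3 by 1.91 ± 0.05 log2 (SD, n = 3). Positions of the probes within the gene were not used here, and the source of the gap was not tested.

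The order of mean levels above the bound was SMAD4, TGFBR1, TGFBR2, SMAD2, TGFB1 and SMAD3, with the 2 probe sets of SMAD2 averaged. TGFB3, SMAD7 and TGFB2 followed below the bound. Their order of signal may be one of background and was not read as one of transcript level. Of the 5 neighbouring pairs above the bound, TGFBR2 and SMAD2 were the only one whose ranges over the arrays overlapped. Their difference was -0.18, 0.18 and 0.18 log2 on arrays 1, 2 and 3. TGFB1 and SMAD3 came next in closeness, with TGFB1 higher by 0.02, 0.17 and 0.24 log2. SMAD4 exceeded TGFBR1 by 0.28 ± 0.06 (SD, n = 3), and TGFBR1 exceeded TGFBR2 by 0.42 ± 0.15 (SD, n = 3). The step between SMAD2 and TGFB1 was 1.77 ± 0.06 (SD, n = 3) with the average of the SMAD2 probe sets and 0.83 ± 0.04 (SD, n = 3) with the lower probe set alone.

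**Figure D2:**
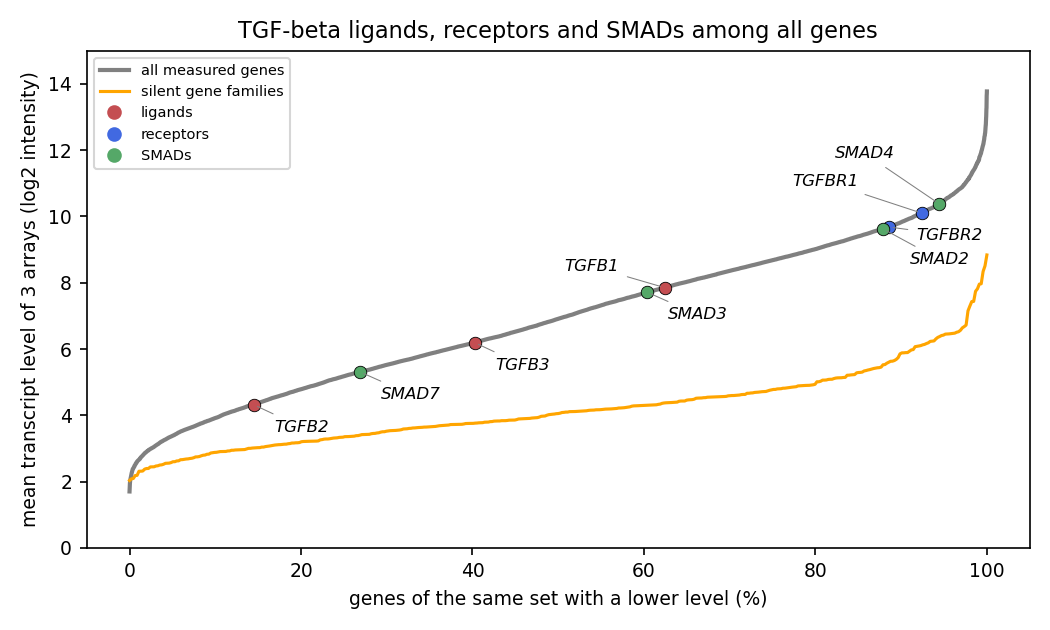
Mean transcript level of 3 arrays (y axis, log2 intensity) against the percentage of genes with a lower level (x axis), for all 18417 genes (grey line) and within the 455 genes of the silent families (orange line). Ligands, receptors and SMADs are marked on the grey line, from TGFB2 above 14.5% of genes to SMAD4 above 94.4%.

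The spread between cultures differed from gene to gene, and no array was the highest or the lowest for all 9 genes. Of the 9 genes, 5 had an SD above the median of their decile of signal, where 50% of all genes do by construction. TGFB3 and TGFBR2 varied most, with ranges of 0.38 log2 each, and TGFB3 was lowest on array 3 where TGFBR2 was lowest on array 1. TGFB2 and SMAD4 varied least, with ranges of 0.02. Array 2 gave the highest value for 6 of the 9 genes, against 32.5% of all genes, but SMAD7 was lowest on that array. Array 3 gave the lowest value for 5 of the 9 genes, against 32.5% of all genes. Replicate cultures of 1 condition offer no contrast, so nothing further was read from these shifts.

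**Figure D3:**
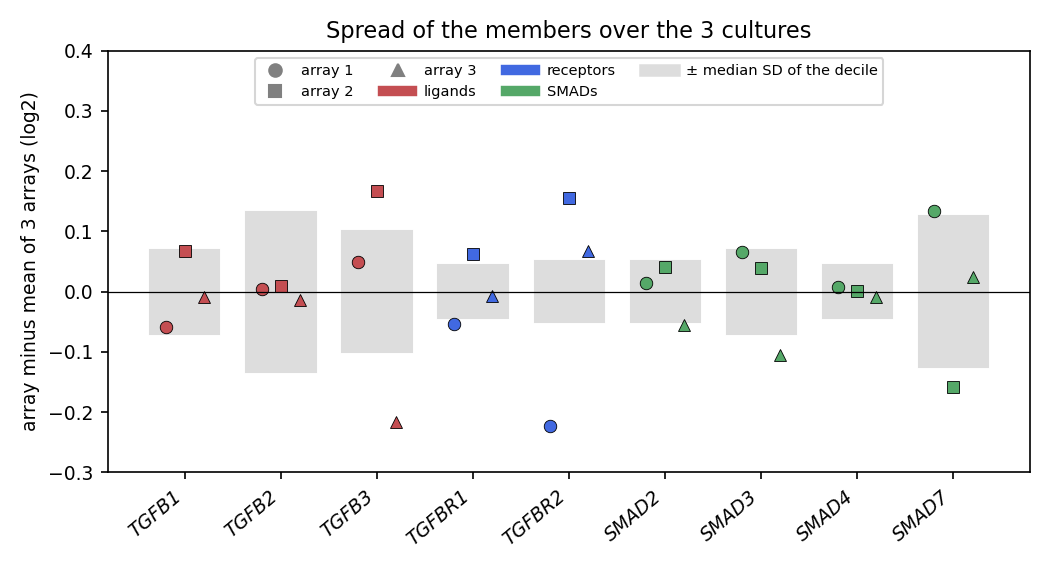
Deviation of each array from the mean of the 3 arrays (y axis, log2) for the 9 genes, with a symbol per array, and grey boxes of plus and minus the median SD of genes in the same decile of signal. TGFB3 and TGFBR2 reach farthest from 0, with ranges of 0.38, whereas TGFB2 and SMAD4 stay near it, with ranges of 0.02.

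Transcripts for proteins that hold, anchor or release latent TGF-beta ranged from 4.07 to 10.36 log2. Of 14 genes, 6 exceeded the bound of the silent families (56.3% of all genes), with a median of 6.23 log2 against 6.91 for all genes. Thrombospondin 1 (THBS1), which can activate latent TGF-beta, was at 10.42, 10.16 and 10.50 (10.36 ± 0.18, SD, n = 3). The integrin chain ITGAV was at 9.59 ± 0.04 (SD, n = 3) and the latent TGF-beta binding protein LTBP4 at 9.23 ± 0.10 (SD, n = 3). The beta chains that pair with ITGAV to release the ligand, ITGB6 at 4.07 ± 0.17 and ITGB8 at 4.92 ± 0.10 (SD, n = 3), were the lowest of the list and below the bound. Of the co-receptors, betaglycan (TGFBR3), which presents TGFB2 to the receptors, was at 7.02 ± 0.06 (SD, n = 3). The pseudoreceptor BAMBI was at 7.92 ± 0.27 (SD, n = 3), and endoglin (ENG), mainly an endothelial co-receptor, was at 6.27 ± 0.03 (SD, n = 3), below the bound.

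TGFBR1 and TGFBR2 were the highest of the receptor kinases of the superfamily measured here. BMPR1A was not analysed and is not part of this ranking. Among 5 other type I receptors, ACVR1B, which receives activin, was highest at 8.57 ± 0.09 log2 (SD, n = 3), and TGFBR1 exceeded it by 1.53 ± 0.12 within the arrays (SD, n = 3). ACVR1, a BMP and activin receptor, was at 7.37 ± 0.05 (SD, n = 3), whereas ACVRL1 at 5.67, ACVR1C at 5.46 and BMPR1B at 4.28 were below the bound. Among 4 other type II receptors, BMPR2 was at 8.61 ± 0.12 (SD, n = 3), lower than TGFBR2 by a difference of 1.07 ± 0.09 within the arrays (SD, n = 3, TGFBR2 minus BMPR2). The activin receptors ACVR2A and ACVR2B were at 7.57 ± 0.10 and 6.84 ± 0.15, and AMHR2, the receptor for anti-Müllerian hormone, at 5.91 ± 0.17 (SD, n = 3). No measured ligand of the superfamily on the lists reached the upper tertile of genes. Of 13 measured genes on the activin, nodal and GDF ligand list 5 exceeded the bound, beside 56.3% of all genes. They were led by GDF11 at 7.71 ± 0.12, GDF15 at 7.26 ± 0.32 and LEFTY2 at 7.19 ± 0.14 (SD, n = 3). The list goes by family, and not every gene on it activates these receptors. GDF3 at 3.62 and MSTN at 2.77 were the lowest of this list. Of 16 genes on the BMP ligand list, which also holds AMH and GDF genes, 3 exceeded the bound, beside 56.3% of all genes. They were AMH at 7.45 ± 0.11, GDF7 at 7.13 ± 0.14 and GDF10 at 6.50 ± 0.11 (SD, n = 3). GDF10 was above the bound on 2 of the 3 arrays. BMP5 at 4.60 and BMP10 at 3.88 were lowest.

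The SMADs of the BMP branch were all above SMAD3. SMAD1 was at 8.99 ± 0.12, SMAD5 at 8.91 ± 0.01 and SMAD9 at 8.85 ± 0.10 log2 (SD, n = 3). SMAD2 exceeded SMAD1 by 0.63 ± 0.10 (SD, n = 3) when its probe sets were averaged, but its lower probe set, at 8.68, was below the means of SMAD1, SMAD5 and SMAD9. SMAD6, the inhibitory SMAD that acts mainly on the BMP branch, was at 7.72, 7.88 and 7.85 (7.82 ± 0.09, SD, n = 3), and exceeded the bound on each array, whereas SMAD7 was below it on each.

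All 21 measured adaptors, ubiquitin ligases, phosphatases and co-repressors that act on the receptors or SMADs exceeded the bound, beside 56.3% of all genes. Of them, 18 were in the upper tertile of genes (33.3% of all genes). The median of the 21 was 8.90 log2. The deubiquitinase USP9X, which acts on SMAD4, was at 10.89 ± 0.06, the receptor-associated protein STRAP at 10.74 ± 0.06 and the co-repressor TGIF1 at 10.49 ± 0.06 (SD, n = 3). The ligases SMURF1 and SMURF2, which SMAD7 brings to the receptors, were at 8.79 ± 0.06 and 9.21 ± 0.05 (SD, n = 3, named after their values were seen). The lowest of the list were PPM1A, a SMAD phosphatase, at 7.44 ± 0.11 and PMEPA1, which sequesters SMAD2 and SMAD3, at 7.21 ± 0.07 (SD, n = 3). Of 14 nuclear partners of the SMADs, 9 exceeded the bound, a share of 64.3% beside 56.3% of all genes. The E2F partner TFDP1 was highest at 10.41 ± 0.07, followed by SP1 at 9.71 ± 0.03 and E2F4 at 9.39 ± 0.03 (SD, n = 3). SMAD3 joins E2F4 or E2F5 and p107 (RBL1) to repress MYC in cells arrested by TGF-beta, and E2F5 and RBL1, also named after their values were seen, were at 8.54 ± 0.04 and 9.17 ± 0.08 (SD, n = 3). The lowest partners were RUNX2 at 4.41 ± 0.18 and ZEB2 at 3.88 ± 0.19 (SD, n = 3). Of 9 secreted antagonists 4 exceeded the bound, beside 56.3% of all genes. They were FSTL1 at 9.56 ± 0.11, FSTL3 at 7.37 ± 0.07, BGN at 6.56 ± 0.07 and CHRD at 6.49 ± 0.09 (SD, n = 3). CHRD was above the bound on 2 of the 3 arrays. CER1 at 4.47 and DCN at 3.10 were lowest.

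**Figure D4:**
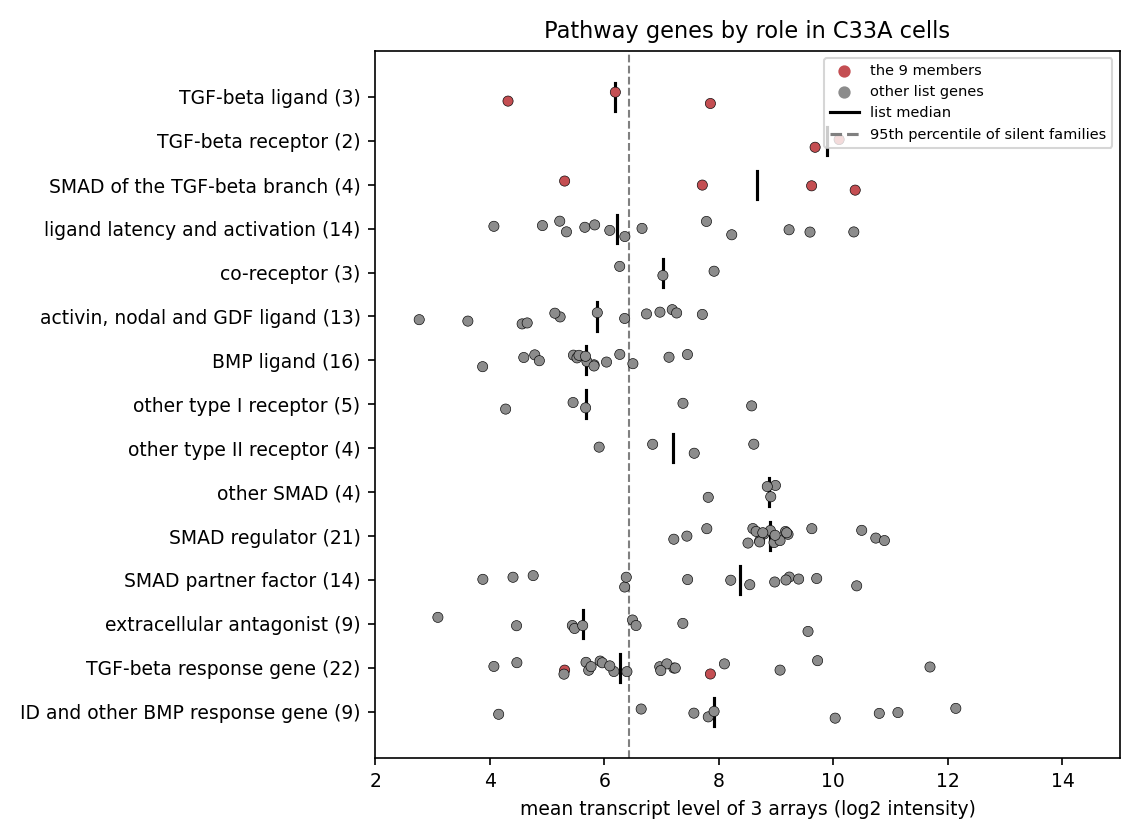
Mean transcript level of 3 arrays (x axis, log2 intensity) of the measured genes of each pathway list (rows, number of genes in brackets), with the 9 ligands, receptors and SMADs in red and list medians as black bars. The dashed line is the 95th percentile of the silent families (6.43). All 21 SMAD regulators lie right of it, and 3 of 16 genes on the BMP ligand list do, beside 56.3% of all genes.

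Genes that TGF-beta often induces did not have high levels as a list. Of 22 measured genes, among them TGFB1 and SMAD7 themselves, 10 exceeded the bound (56.3% of all genes) and 3 were in the upper tertile, with a median of 6.28 log2 against 6.91 for all genes. The 3 were the matricellular gene CCN2 at 11.69 ± 0.02, the early response factor KLF10 at 9.72 ± 0.05 and SKIL, a SMAD co-repressor induced as feedback, at 9.07 ± 0.06 (SD, n = 3). PMEPA1, at 7.21, also exceeded the bound, whereas SMAD7, a feedback inhibitor as well, did not. The epithelial to mesenchymal transition factor SNAI2 at 4.47 ± 0.08 and ITGB6 were lowest (SD, n = 3). Of 9 genes often induced by BMP, 8 exceeded the bound, beside 56.3% of all genes. ID3 at 12.14 ± 0.06, ID1 at 11.13 ± 0.08 and ID2 at 10.80 ± 0.04 were in front (SD, n = 3). MSX1 at 6.64 and MSX2 at 4.16 were last. The genes of both response lists have other inducers, and without a stimulated or inhibited culture the levels are no measure of signalling.

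The palindrome GTCTAGAC, which SMAD3 and SMAD4 bind and which reads the same on both strands, was searched for in the same promoter windows. It was in 0.201% of the 27305 windows, in none of the 9 members and in none of 17 response genes with a window. Of 112 pathway genes with a window, SMAD6 alone held it, beginning at position -12. This match is shown with 10 bases on either side because it was the only one among these genes (chr15:66702214-66702241, plus strand, GRCh38.p14, palindrome in capitals).
SMAD6: ccgccaaagtGTCTAGACtggcatatga
No match says only that these letters are not in the window, and sites farther from the start were not searched.

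Among the other 126 pathway genes, those of closest level over the 3 arrays were TFDP1 for SMAD4 (root mean square difference 0.07 log2), ID4 for TGFBR1 (0.07), SP1 for TGFBR2 (0.15) and CTDSP2 for SMAD2 (0.03). SMAD6 was closest to TGFB1 (0.05), GDF11 to SMAD3 (0.03), BMP8B to TGFB3 (0.16), TGFBI to SMAD7 (0.07) and BMPR1B to TGFB2 (0.13). This likeness is one of level in a single condition. Of these 126 genes, 72 exceeded the bound of the silent families (57.1%, beside 56.3% of all genes), with a median of 6.98 log2. Of the 9 members, 6 did so, with a median of 7.85.

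Across the 3 arrays, Pearson's r over all probe sets was 0.993 to 0.994 and the medians over genes were 6.90 to 6.92 log2. The median SD of a gene was 0.08 log2, and having 3 arrays limits how precisely any level is known. Markers of an epithelial origin were low. Of 9 measured, KRT18 at 7.75 and KRT14 at 6.86 exceeded the bound, beside 56.3% of all genes. KRT7 at 6.32, CDH1, the epithelial cadherin, at 4.95 and EPCAM at 4.52 had means under the bound. On array 1 KRT7 exceeded it, at 6.55. Of the markers of other cells, 3 of 10 for fibroblasts (COL3A1 at 11.36, THY1 at 7.59 and COL1A1 at 7.24), 2 of 8 for endothelium (EGFL7 at 7.43 and CLDN5 at 6.89) and 1 of 10 for leukocytes and platelets (PTPRC at 8.82) exceeded the bound. The share of all genes above it was 56.3%. The fibroblast markers LUM at 2.52 and DCN at 3.10, the endothelial marker PECAM1 at 3.58 and the leukocyte markers MS4A1 at 3.51 and LYZ at 3.59 lay below the median of the silent families. Under the bound but above that median were the fibroblast markers COL1A2 at 6.33, PDGFRA at 6.15, POSTN at 5.56 and PDGFRB at 5.55. They were named after their values were seen, and COL1A2 exceeded the bound on array 1, at 6.44. The endothelial markers CDH5 at 5.07 and KDR at 4.30 were also in this range. So were the leukocyte marker CD14 at 5.95, 6.02 and 6.02 on the 3 arrays and the platelet marker ITGA2B at 5.50. Further markers in this range are not named. All 3 cultures were labelled as the C33A line, and no other cell type is named in the labels. The source of the marker signals was not tested.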

How the data were processed

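Total RNA of 3 C33A cultures was labelled and hybridized to Affymetrix Human Gene ST arrays. The authors extracted the raw data with Affymetrix software, normalized them by RMA, processed them with oneChannelGUI, with versions not given in the sources used here, and deposited log2 intensities, 1 per probe set and array. RMA gives the arrays 1 common distribution, which removes overall differences between cultures, and compresses low signals. The 3 arrays form 1 group, so no contrast was tested. An exact sign-flip test over 3 arrays cannot give a two-sided p under 0.25.

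The platform annotation gives a single symbol for 19460 of 33297 probe sets, which were used, several symbols for 1754 and none for 12083. Symbols were updated through the RefSeq table of GRCh38.p14, and values were averaged per gene where several probe sets exist (769 genes). Silent families were chosen by symbol and protein-coding biotype. Of 135 other pathway genes, 126 were measured and 9 are not analysed here. The genes and lists were chosen with earlier results of these data known, and the marker lists likewise. Named genes are the 9 members, all genes of lists with 6 or fewer measured, otherwise the 3 highest and 2 lowest, and the gene closest to each member; CHRD is named as the remaining antagonist above the bound, and genes marked in the text were added. Promoters are the first windows listed in RefSeq. A planned comparison of protein sequences was not run. Alternatives left out each array, took the highest probe set, centred the arrays on their medians, and changed the bound and the ranked genes. Functions were tested on simulated levels. Tables were computed with pandas 2.3.3 and NumPy 2.4.6 under Python 3.11.15, figures were drawn with matplotlib 3.10.9, and SciPy 1.17.1 served the simulation.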

Additional observations from a re-analysis of the deposited data

How the results depend on the processing

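Leaving out each array in turn kept 6 members above the bound of the silent families and 4 in the upper tertile, with 72 to 74 of the other pathway genes above the bound. The order of the members was kept in 35 of 36 pairs without array 3, where SMAD2 came before TGFBR2, and in all 36 without array 1 or 2. With the highest probe set of each gene SMAD2 was at 10.56 log2 in place of 9.62, and 33 of 36 pairs kept their order. The alternative takes 1 of 2 probe sets that differ, which is its whole effect on SMAD2. On the lower probe set, an alternative chosen after seeing the data, SMAD2 was at 8.68. Centring the arrays on their medians leaves the mean of 3 arrays as it was by construction, so it tests no level. With the 99th percentile of the silent families as bound, 4 members and 44 other pathway genes exceeded it, where 37.2% of all genes do. The higher bound counts fewer genes by construction. With the 90th percentile it was 7 and 86 (64.8% of all genes), with olfactory receptor genes alone (bound 5.38) 7 and 103 (72.0%), and with the lowest array in place of the mean 6 and 70 (54.9%). The upper tertile held 4 members also among genes with a protein accession or without the silent families. No paired analysis was possible because all samples belong to 1 group. The arrays carry no detection call, and the signal of the silent families limits what can be said of TGFB2, TGFB3 and SMAD7.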
